A study of Mus musculus with 4 samples.

Results

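The cells described here were 246 tumour-infiltrating cells with RNA for Cd209a, a C-type lectin of the DC-SIGN family that mouse dendritic cells use to bind sugars. They were 1.07% of 23011 CD45+ cells that had 300 to 5000 detected genes and at most 6% of unique molecular identifiers (UMIs) in mitochondrial genes. A cell was taken when it held at least 2 Cd209a UMIs and at least 5 UMIs of the MHC class II genes H2-Aa and H2-Ab1, no Xcr1, Clec9a, Cd3 or Cd79a UMI, fewer than 5 UMIs of C1qa, C1qb and C1qc together, and not both Ccr7 and Fscn1. The members were thus chosen by measured UMIs of these genes, whose levels describe the choice of cells and are not results.

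The cells came from subcutaneous KPC tumours, formed by a mouse pancreatic cancer line and grown in syngeneic C57BL/6 mice. Live CD45+ leukocytes were sorted, pooled over the mice of a group and loaded as 1 droplet library per group. The Untreated group received neither agonist, the STING agonist group received the cyclic dinucleotide ADU-S100 into the tumour, the LTbR agonist group received an agonistic antibody to the lymphotoxin-beta receptor intraperitoneally, and the STING and LTbR agonist group received both and is called the combination here. The question was how each agonist and the combination altered the immune cells of these tumours. With 1 pooled library per group, every difference below compares libraries, has no replicate check and carries no p-value. Intervals are exact 95% binomial or Poisson intervals that cover counting error only, and the interval of a ratio joins opposite bounds of its parts. UMIs of 1 gene often came from few cells, which these intervals do not cover.

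Type 2 conventional dendritic cells (cDC2) take up antigen in tissues, present it on MHC class II to CD4 T cells and answer to interferons, to IL-4 and IL-13 and to lymphotoxin. Cd209a is known both from a part of the cDC2 and from dendritic cells that arise from monocytes, which often carry Fcgr1, the high-affinity IgG receptor CD64. STING senses cyclic dinucleotides and drives type I interferon, and the lymphotoxin-beta receptor signals to NF-kB.

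Members numbered 85 in the untreated library, 45 under the STING agonist, 76 under the LTbR agonist and 40 under the combination. Their median depth was 10355, 12915, 9601.5 and 10834.5 UMIs per cell, with a range over all members from 1701 to 28835. Summed over members, the libraries held 896737, 570493, 772243 and 449709 UMIs, so a count of 3 UMIs corresponded to 3.35, 5.26, 3.88 and 6.67 UMIs in 1000000 (CPM). Of all 24839 barcodes, 284 occurred in 2 libraries, and 8 members were among them, without which 157 genes were at least 2-fold higher and 210 lower under the combination, against 165 and 192 with them. Scrublet scored 3 members above 0.2, and no cell was removed as a doublet.

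The labelled identity held only in part. Of the 5 genes used to name the population, Cd209a was required, Kmo (kynurenine 3-monooxygenase) was detected in 147 of 246 cells, Mgl2 (the lectin CD301b) in 61, Ccl17 (a CCR4 ligand) in 31 and Plet1 in 14. Plet1 stood at 25.6, 29.8, 3.88 and 66.7 CPM in members of the untreated, STING agonist, LTbR agonist and combination libraries, and at 927, 855, 1113 and 794 CPM in cells gated by Xcr1 or Clec9a (cDC1). Plet1 was thus no marker of these cells. The cDC2 markers Sirpa (191 of 246 cells), Itgam (162) and Clec10a (160) were widespread, the dendritic cell receptor Flt3 was seen in 102 cells and the transcription factor Zbtb46 in 73. Some markers of monocyte origin were as common: Ccr2 in 179 cells, Lyz2 in 177, Fcgr1 in 122 and Ly6c2 in 118. Others of that list were rare in thinned cells, with Vcan in 2, 1, 2 and 1 members and C5ar1 in 0, 0, 1 and 0. The gate therefore held cells with dendritic and with monocyte-derived markers, and the name is used below for the gate and not for a single cell type.

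Of 409 quality-filtered cells with at least 2 Cd209a UMIs, 62 failed for Xcr1 or Clec9a, 56 for a Cd3 gene, 53 for low MHC class II, 17 for C1q, 2 for Cd79a and 2 for Ccr7 with Fscn1. At the edge of the rule, 33 members had exactly 2 Cd209a UMIs and 66 otherwise eligible cells had 1. Other cell types left small traces. Mast or basophil markers (4 of 4 genes), Ms4a1, Ly6g, Retnlg and Pf4 were at 0 in members. The 7 T cell markers, of which the Cd3 genes were at 0 by the rule, summed to between 4.46 and 44.5 CPM in members, against 3873 to 4940 CPM in T cells. NK markers summed to 41.3, 0, 208 and 2.22 CPM, and their part in the results was not tested. Gzma was most of this in the untreated (24 UMIs) and LTbR agonist (107 UMIs) libraries and had 0 UMIs in the combination library.

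In all, 11 members also carried at least 2 of the 4 plasmacytoid dendritic cell genes Siglech, Ccr9, Ly6d and Cox6a2: none of the untreated library, 3 of the STING agonist library, 4 of the LTbR agonist library and 4 of the combination library. Summed, these 11 cells had 2195 CPM of Siglech, 1463 CPM of Ly6d and 2254 CPM of Ly6c2, with Fcgr1 and Lyz2 at 0. The 5 plasmacytoid markers summed to 211 CPM in untreated members and to 591, 600 and 1007 CPM in the other libraries. Shares, counts of genes past 2-fold, Ly6c2 and the interferon genes are given below with and without them.

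Members made up 1.25% of filtered cells in the untreated library (95% interval 1.00 to 1.55), 1.20% under the STING agonist (0.877 to 1.60), 1.06% under the LTbR agonist (0.839 to 1.33) and 0.750% under the combination (0.536 to 1.02). The ratio to untreated was 0.958 (0.567 to 1.60) for the STING agonist, 0.849 (0.542 to 1.33) for the LTbR agonist and 0.599 (0.347 to 1.02) for the combination. The share was lowest under the combination, and all 3 intervals held 1. For the combination this depended on the gate. The ratio was 0.539 (0.306 to 0.931) without the plasmacytoid-marked cells, 0.496 (0.268 to 0.894) with at least 3 Cd209a UMIs and 0.297 (0.138 to 0.604) with every cell thinned to 3000 UMIs before the gate, intervals that leave out 1. Among all gated dendritic cells (these cells, cDC1 and mature Ccr7 and Fscn1 cells) the share was 34.8%, 42.9%, 43.7% and 41.2%. With this denominator the combination was no longer below untreated, since cDC1 went from 0.899% to 0.338% and mature dendritic cells from 1.44% to 0.731% of filtered cells. As a part of Cd209a cells plus Ly6c2 monocytes, the share was 14.1%, 14.6%, 12.3% and 13.3%. CD45+ shares depend on all other leukocytes of a library and say nothing of numbers of cells per tumour.

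**Figure D1:**
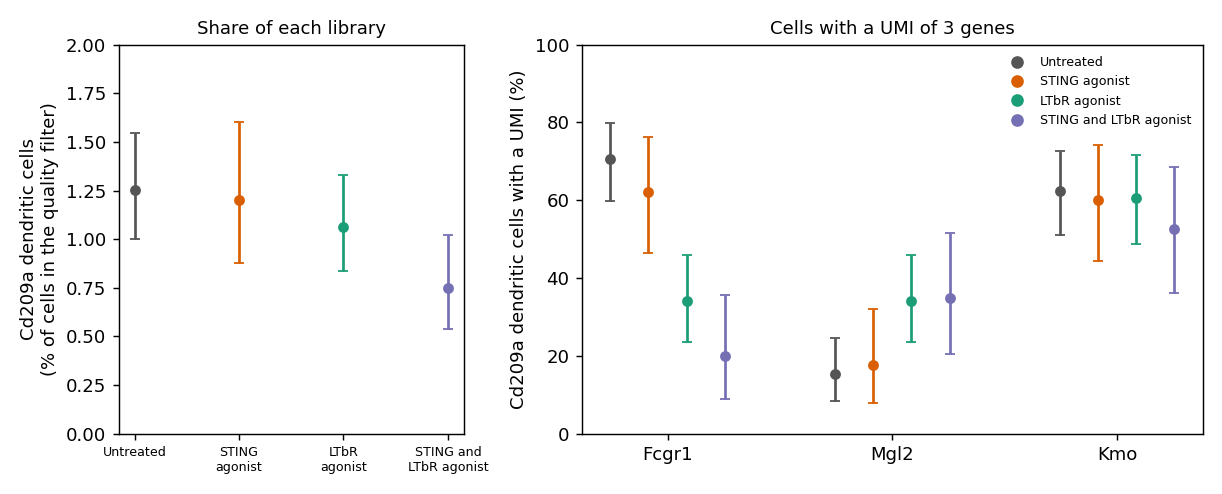
Share of Cd209a dendritic cells in each library, as percent of filtered CD45+ cells (left), and percent of these cells with a UMI of Fcgr1, Mgl2 or Kmo (right), with exact 95% binomial bars, 1 library per group. The share of filtered cells was 1.25% untreated and 0.750% under the combination with bars that overlap, and cells with Fcgr1 were 70.6% untreated and 20% under the combination with bars that do not.

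Genes that set the gated cells apart from the cDC1, mature dendritic cell, Ly6c2 monocyte and C1q macrophage gates by at least 4 times in every library, at 50 CPM or more, were Cd209a and 3 others. Cells of those gates had to hold no Cd209a UMI, or fewer than 2 in the mature gate. The place of Cd209a was thus set by the choice of cells, and the effect of this choice on its paralogs was not tested. Cd7, better known from T and NK cells, stood at 219, 263, 176 and 182 CPM in members of the untreated, STING agonist, LTbR agonist and combination libraries. In the cDC1, mature, monocyte and macrophage gates Cd7 did not pass 9.29 CPM, while T cells held 100, 118, 111 and 63.3 CPM. Cd7 was found in 108 of 246 members, and the Cd3 genes were at 0 in all members by the rule. The lectin paralogs Cd209d (119, 142, 181 and 102 CPM) and Cd209c (99.2, 49.1, 67.3 and 84.5 CPM) lie next to Cd209a on chromosome 8 (mm10, GENCODE coordinates: Cd209a chr8:3743397-3748984, Cd209d chr8:3871824-3878555 and Cd209c chr8:3940222-3954746). Reads of near-identical family members may have been split or dropped in counting, so the values of the paralogs are uncertain. Cd209d was in 83 members and Cd209c in 95.

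Among the naming genes, Cd209a stood at 1256, 1236, 931 and 654 CPM in the untreated, STING agonist, LTbR agonist and combination libraries, a gradient within cells chosen for this gene. Mgl2 stood at 118, 96.4, 321 and 425 CPM, so that both libraries with the LTbR agonist were above both without it. On the log2 scale after adding 10 CPM, which understates the change of low genes, Mgl2 was 1.37 (0.93 to 1.81) higher under the LTbR agonist and 1.76 (1.30 to 2.23) higher under the combination, and the interval of the STING agonist, -0.27 (-0.89 to 0.34), held 0. The share of members with an Mgl2 UMI was 15.3% (8.40 to 24.7), 17.8% (8.0 to 32.1), 34.2% (23.7 to 46.0) and 35% (20.6 to 51.7). T cells, taken as a population that should lack the gene, held an Mgl2 UMI in 0.148% to 0.448% of cells. With every cell thinned to 3000 UMIs, the members' shares were 12.9%, 9.30%, 23.7% and 28.2%. The same order of libraries was present in C1q macrophages, with 42.5, 40.1, 194 and 249 CPM of Mgl2, and not in cDC1, with 107, 106, 81.0 and 126 CPM.

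Ccl17, the other naming gene of the chemokine kind, stood at 21.2, 17.5, 110 and 55.6 CPM, 1.94 (1.18 to 2.68) higher under the LTbR agonist and 1.07 (0.09 to 2.02) higher under the combination on the log2 scale. It was carried by few cells, 7, 4, 13 and 7 of the members. Mature dendritic cells, which are the main source of this chemokine in tissues, held more Ccl17 in each library, at 122, 273, 497 and 383 CPM. Kmo stood at 188, 174, 150 and 238 CPM, and all its intervals held 0. Clec10a, a cDC2 lectin close to Mgl2, stood at 244, 252, 297 and 213 CPM, and all its intervals held 0 as well.

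**Figure D2:**
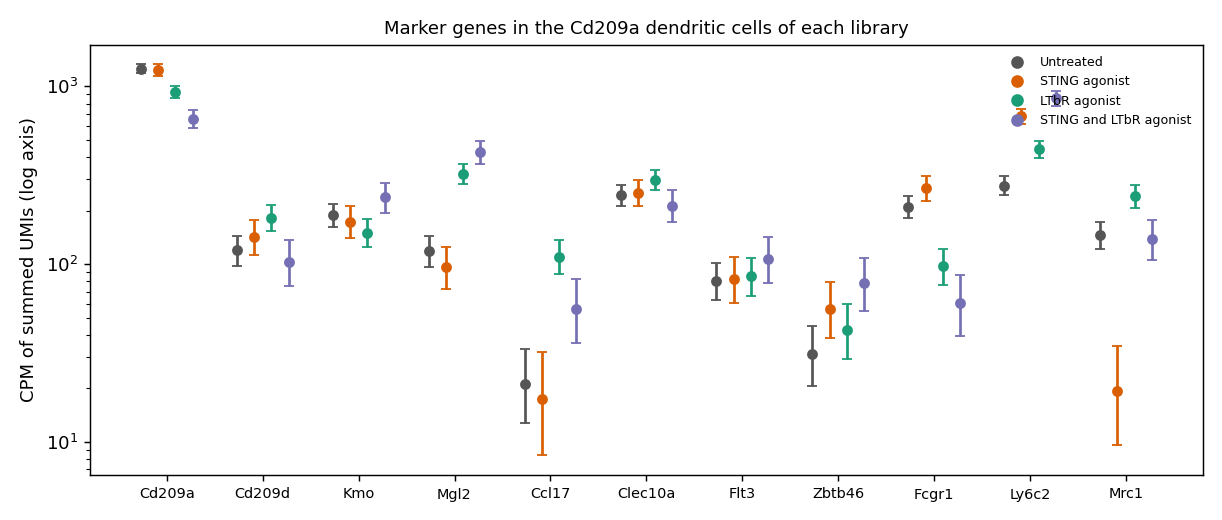
Level of marker genes in Cd209a dendritic cells by library, in CPM (log axis) with exact 95% Poisson bars, 1 library per group. Mgl2 lay at 321 and 425 CPM in the libraries with the LTbR agonist and at 118 and 96.4 CPM in the others, and Fcgr1 lay at 97.1 and 60.0 against 210 and 268 CPM.

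Fcgr1 went the other way. It stood at 210 CPM in untreated members, 268 under the STING agonist, 97.1 under the LTbR agonist and 60.0 under the combination, with a log2 ratio to untreated of 0.34 (-0.09 to 0.77), -1.04 (-1.54 to -0.53) and -1.65 (-2.35 to -0.97). Cells with an Fcgr1 UMI were 70.6% (59.7 to 80.0), 62.2% (46.5 to 76.2), 34.2% (23.7 to 46.0) and 20% (9.05 to 35.6) of members, against 1.05% to 1.95% of T cells. At 3000 UMIs per cell the members' shares were 38.8%, 41.9%, 18.4% and 7.69%. Fcgr1 was also lower under the LTbR agonist and the combination in Ly6c2 monocytes, with 466, 515, 319 and 241 CPM, and in C1q macrophages, with 447, 441, 300 and 230 CPM, where most cells kept a UMI. In those gates 65.0% of monocytes and 66.4% of macrophages of the combination library still held one.

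The other markers of monocyte origin did not all follow Fcgr1. Of 8 testable genes of the monocyte-derived list, those with a mean of at least 20 CPM, 2 were at least 2-fold higher and 0 lower under the STING agonist (Ly6c2 and Hp), where 1.23% of all 5539 genes were at least 2-fold higher and 0.578% lower. Under the LTbR agonist 1 gene was lower (Fcgr1) and 0 higher, against 0.83% and 1.5% of all genes. Under the combination Fcgr1 was among the lower genes and Ly6c2 was higher, against 3.47% and 2.98% of all genes. Ly6c2 stood at 277, 678, 443 and 854 CPM, and at 277, 612, 325 and 702 CPM without the cells with plasmacytoid genes. Of the latter, cells with an Fcgr1 UMI had 300, 715, 530 and 2014 CPM, and cells without one 216, 375, 198 and 175 CPM. In the combination library 232 Ly6c2 UMIs were in the 8 cells with Fcgr1 and 50 in the 28 cells without. Lyz2 stood at 3018, 4240, 2076 and 2230 CPM. The dendritic factor Zbtb46 was at 31.2, 56.1, 42.7 and 77.8 CPM and 1.09 (0.22 to 1.94) higher under the combination, while Flt3, at 80.3, 82.4, 85.5 and 107 CPM, and Irf4, at 52.4, 38.6, 73.8 and 77.8 CPM, had intervals that held 0.

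Of the cells with Mgl2, 9 of 13 in the untreated library and 5 of 8 under the STING agonist also held Fcgr1, against 8 of 26 under the LTbR agonist and 1 of 13 under the combination, plasmacytoid-marked cells left out. Among the 235 members without plasmacytoid genes, 99 held Fcgr1 alone, 37 Mgl2 alone, 23 both and 76 neither. Cells without an Fcgr1 UMI had 116, 106, 464 and 580 CPM of Mgl2 in the untreated, STING agonist, LTbR agonist and combination libraries, and cells with one had 119, 103, 123 and 208 CPM. The higher Mgl2 of the libraries with the LTbR agonist was therefore mainly in cells without Fcgr1. In cells with an Fcgr1 UMI Flt3 stood at 38.7, 37.9, 49.2 and 52.1 CPM, and in cells without one at 188, 144, 102 and 119 CPM. Detection depends on depth, and a cell with no UMI may still express the gene.

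Other Fc receptors for IgG were lower beside Fcgr1. Of 17 uptake receptors tested, 4 were at least 2-fold lower under the combination, all of them Fc receptors, and 1 was higher, Mgl2, against 3.47% and 2.98% of all genes. The activating receptor Fcgr4 stood at 120, 52.6, 46.6 and 28.9 CPM, so that every treated library was at least 2-fold lower, with a log2 ratio of -1.06 (-1.77 to -0.35) under the STING agonist alone. The activating Fcgr3 stood at 277, 214, 137 and 93.4 CPM and the inhibitory Fcgr2b at 488, 331, 348 and 180 CPM, with log2 ratios under the combination of -1.47 (-2.06 to -0.89) and -1.39 (-1.84 to -0.96). The mannose receptor Mrc1 stood at 146, 19.3, 241 and 138 CPM, and it was 2.41 lower on the log2 scale under the STING agonist alone (-2.41, -3.22 to -1.57). Under the LTbR agonist 3 uptake receptors were higher, Mgl2, Clec4a3 and Clec4b1, and 2 were lower, Fcgr1 and Fcgr4, against 1.5% and 0.83% of all genes.

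Genes induced by type I interferon were lower in members of the combination library. Of 31 tested type I interferon-stimulated genes, from a list of 34, 17 were at least 2-fold lower and 0 higher, and 30 of 31 lay below 0 with a median log2 ratio of -1.04, where 3.47% of all genes were at least 2-fold lower and their median was 0.03. Under the LTbR agonist 2 were lower (Ifit2 and Oasl1), against 0.83% of all genes, 28 lay below 0, and the median was -0.48. The STING agonist library had 1 gene higher (Cmpk2) and 0 lower, with a median of 0.16. Isg15, a ubiquitin-like protein, stood at 1411, 1604, 935 and 447 CPM. Ifit2, which binds viral RNA, stood at 492, 452, 186 and 86.7 CPM, a log2 ratio under the combination of -2.38 (-2.94 to -1.83). Ifit3 stood at 269, 449, 139 and 91.2 CPM and Oasl1 at 166, 160, 73.8 and 26.7 CPM, so that for each of these 4 genes the combination library was lowest and the LTbR agonist library next. Cmpk2, a mitochondrial nucleotide kinase at 24.5, 73.6, 28.5 and 26.7 CPM, was the tested gene that did not lie below 0.

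Set against the STING agonist library, the combination had 22 of 31 type I interferon-stimulated genes at least 2-fold lower, where 4.26% of all genes were, and a median of -1.19. Set against the LTbR agonist library, 3 of 31 were lower, where 1.44% of all genes were, with a median of -0.58. These comparisons share libraries with those above and are given side by side only.

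The same list was taken in the other gated cells of these libraries. Under the combination, the median log2 ratio of the type I interferon-stimulated genes was -0.92 in mature dendritic cells, with 11 of 25 genes at least 2-fold lower, where 2.75% of 5384 genes were. It was 0.04 in cDC1, -0.02 in Ly6c2 monocytes, -0.42 in C1q macrophages and -0.23 in T cells, with 0 genes at least 2-fold lower in each of these 4 gates. Of all genes tested in these gates, 2.88%, 1.32%, 0.211% and 0.127% were at least 2-fold lower. The combination library held 18, 260, 589 and 1563 cells of these gates, so counts of genes past 2-fold are not alike between gates. Isg15 in mature dendritic cells stood at 1087, 846, 435 and 372 CPM, lower in both libraries with the LTbR agonist than in both without it, and in monocytes at 1687, 1576, 1344 and 1430.4 CPM. The differences between gates were not tested.

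Over all members, the median per cell of the summed level of these genes followed the same order of libraries as the share with an Fcgr1 UMI. Pooled counts did not give this order for the STING agonist library, where 21 of 31 genes lay above untreated with a median of 0.16. Fcgr1 was also lower under the LTbR agonist and the combination within the monocyte and macrophage gates. Whether Fcgr1 marked cell origin or interferon response in members was not tested, so the split below does not separate them. Members with an Fcgr1 UMI had a median summed level of the type I interferon-stimulated genes of 10765, 10730, 9390 and 8259 CPM of the cell in the untreated, STING agonist, LTbR agonist and combination libraries. Members without one, plasmacytoid-marked cells left out, had 2821, 6302, 2616 and 2216 CPM. Over all members the medians were 8209, 7937, 4796 and 2818 CPM. The libraries overlapped widely in single cells, which reached from 0 to 27974 CPM untreated and from 189 to 15132 CPM under the combination. In the summed counts, 4 of 31 genes were at least 2-fold lower under the combination in cells with Fcgr1, where 9.4% of 5299 genes were, with a median of -0.32, and 8 of 29 in cells without, where 4.97% of 5588 genes were, with a median of -0.58. The combination held only 8 cells with Fcgr1. Without the plasmacytoid-marked cells, 13 of 31 genes were lower and the median was -0.89.

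**Figure D3:**
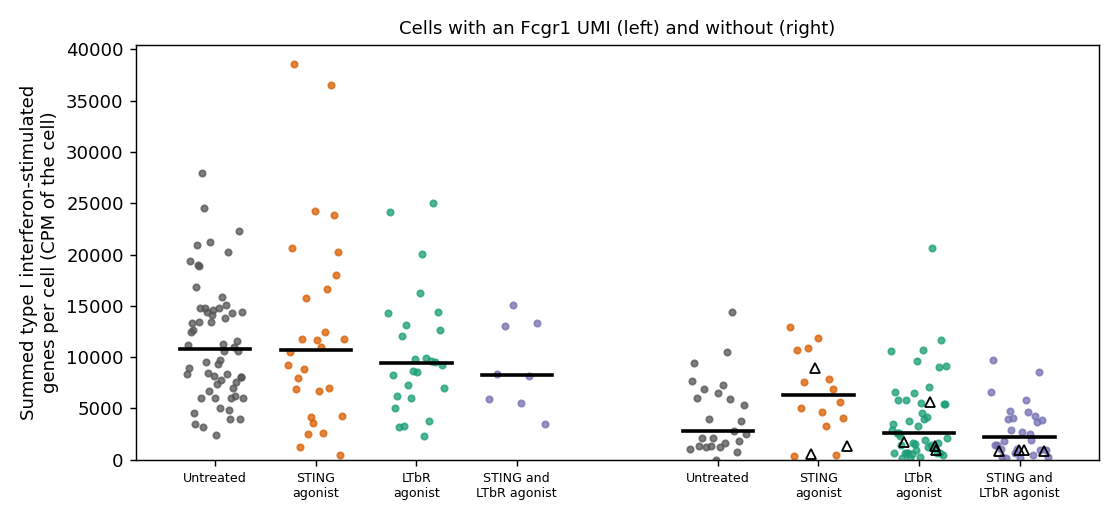
Summed level of the type I interferon-stimulated genes in each Cd209a dendritic cell, in CPM of the cell, for cells with an Fcgr1 UMI (left) and without (right) by library, with open triangles for plasmacytoid-marked cells and bars at the medians of the others. Medians ran from 10765 to 8259 CPM in cells with Fcgr1 and lay at 2821, 6302, 2616 and 2216 CPM in cells without.

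Genes known as targets of interferon-gamma were split. Of 17 tested interferon-gamma-induced genes, 7 were at least 2-fold lower and 3 higher under the combination, against 3.47% and 2.98% of all genes, with a median of -0.78. The LTbR agonist library had 4 lower and 1 higher, against 0.83% and 1.5% of all genes, with a median of -0.70, and the STING agonist library 0 in either direction with a median of 0.22. Cxcl10, a CXCR3 ligand that draws T cells, stood at 2236, 2589, 1286 and 698 CPM, a log2 ratio of -1.67 (-1.89 to -1.44) under the combination. In Ly6c2 monocytes the same gene was 0.88 higher under the combination. Cxcl9, the companion ligand, stood at 364, 326, 155 and 176 CPM. The guanylate-binding protein Gbp3 stood at 107, 84.1, 42.7 and 26.7 CPM. Against this, the serine protease inhibitor Serpina3g was higher, at 30.1, 49.1, 91.9 and 127 CPM, 1.77 (0.98 to 2.55) under the combination. Nos2, the inducible nitric oxide synthase, was also past 2-fold, but all its 21 UMIs in the combination library were in 1 cell.

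Promoters of these genes are shown because an interferon-stimulated response element can be read in them directly. The sequences are from RefSeq windows of GRCm38.p6, 250 bases before to 50 after a gene's start, given 5′ to 3′ in the direction of transcription, with matches to the core of that element on either strand in capitals. The core was searched as GAAA, any 2 bases and GAAA again.

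Isg15: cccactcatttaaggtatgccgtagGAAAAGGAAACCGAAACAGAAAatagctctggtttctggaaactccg
Ifit3: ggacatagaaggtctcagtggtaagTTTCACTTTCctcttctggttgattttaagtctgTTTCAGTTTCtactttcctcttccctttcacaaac
Cxcl10: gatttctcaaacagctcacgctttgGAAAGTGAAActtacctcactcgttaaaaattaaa
Gbp3: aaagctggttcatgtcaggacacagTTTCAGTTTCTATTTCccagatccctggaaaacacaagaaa

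The Isg15 stretch lies at chr4:156200850-156200921 on the minus strand, that of Ifit3 at chr19:34583348-34583441 on the plus strand, that of Cxcl10 at chr5:92349068-92349127 on the minus strand and that of Gbp3 at chr3:142559974-142560039 on the plus strand. Isg15 and Cxcl10 hold the core as written, and Ifit3 and Gbp3 hold its complement. Of 25 type I interferon-stimulated genes with a window, 13 (52%) held the core, as did 9 of 13 interferon-gamma-induced genes (69.2%), against 1079 of 27025 genes in all (3.99%). Among the 17 type I genes at least 2-fold lower under the combination, 14 had a window and 9 of these held the motif. The letters were not in the windows of Ifit2 and Oasl1, which says nothing of how those genes are regulated.

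The IL-4 and IL-13 response list was higher under the LTbR agonist in part of its genes. Of 16 tested, 6 were at least 2-fold higher and 0 lower under the LTbR agonist, against 1.5% and 0.83% of all genes, with a median of 0.55 (Retnla, Arg1, Mgl2, Ccl17, Ccl24 and Ear2). The combination had 4 higher (Retnla, Mgl2, Ccl17 and Ear2) and 3 lower (Il4ra, Arg1 and Tgm2), against 2.98% and 3.47% of all genes, with a median of 0.32, and the STING agonist 0 higher and 1 lower (Mrc1), with a median of -0.13. Retnla, a secreted protein of alternatively activated myeloid cells, had 0 UMIs in the untreated and the STING agonist library, 299 UMIs in 6 cells under the LTbR agonist and 160 UMIs in 3 cells under the combination. Against the limit of 3 UMIs per library this was at least 116-fold higher and at least 106-fold higher. Ear2, an eosinophil-associated ribonuclease, stood at 1.12, 1.75, 132 and 51.1 CPM in 1, 1, 12 and 6 cells. Arg1, arginase 1, had 27, 9, 121 and 0 UMIs, so that it was highest under the LTbR agonist and at least 4.51-fold lower than untreated under the combination. Ccl24 had 65 UMIs in the LTbR agonist library, all of them in 1 cell.

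C1q macrophages of the same libraries had 5 genes of the IL-4 and IL-13 response list higher and 0 lower under each of the LTbR agonist and the combination. Of 5680 genes in macrophages, 0.440% were higher and 0.106% lower under the LTbR agonist, and 0.757% and 0.211% under the combination. Retnla stood at 35.4, 23.3, 378 and 718 CPM in these macrophages. In members, the cells with Retnla were 9 in all, of which 6 also held Mgl2. A STAT6 site, searched as TTC, any 4 bases and GAA, which reads the same on both strands, was in 3 of 15 genes of the list with a window (20%), in 6 of 25 type I interferon-stimulated genes (24%) and in 2164 of 27025 genes in all (8.01%). In 18 windows it overlapped the interferon motif. The matches of the leading genes are shown in capitals, Retnla from chr16:48842439-48842498 and Ccl17 from chr8:94810274-94810333, both on the plus strand.

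Retnla: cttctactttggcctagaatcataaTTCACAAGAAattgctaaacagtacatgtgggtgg
Ccl17: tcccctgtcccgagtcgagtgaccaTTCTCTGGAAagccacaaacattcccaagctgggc

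Windows of Mgl2, Ear2 and Cd209a held no match to the STAT6 site as searched.

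By the rule for named genes, those furthest below untreated under the combination were Tgm2, Ifit2, Mxd1, Osm, Endod1 and Dusp2. That rule leaves out genes whose top 3 cells held 30% or more of the UMIs in the library where the gene was higher. Tgm2, transglutaminase 2, stood at 1402, 1131, 871 and 209 CPM, -2.69 (-3.06 to -2.33) on the log2 scale. In cDC1 Tgm2 was 1.17 higher under the combination, and in monocytes it was at -0.72 and in macrophages at -0.57. Osm, a cytokine of the IL-6 family, stood at 572, 365, 202 and 120 CPM, lower in every treated library and lowest with both agonists. Mxd1, a transcription factor that opposes Myc, stood at 565, 438, 335 and 109 CPM, and Dusp2, a phosphatase of MAP kinases, at 349, 450, 124 and 80.1 CPM. Endod1 had 2 UMIs in the combination library, with a log2 ratio of -2.14 (-2.94 to -0.92). The transcription factor Cebpb, at 920, 915, 602 and 389 CPM, and the chemokine receptor Ccr1, at 182, 156, 115 and 48.9 CPM, followed the same order of libraries.

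In all, 83 genes were at least 2-fold higher and 46 lower under the LTbR agonist, and 165 higher and 192 lower under the combination, or 128 and 245 when the libraries were scaled by TMM. Without the plasmacytoid-marked cells they were 65 and 49 under the LTbR agonist and 128 and 183 under the combination. By the rule for named genes, the highest under the LTbR agonist were Pltp, Rbmxl1, Shtn1, Mt1, Hspa9 and Nup50. Pltp, the phospholipid transfer protein, stood at 35.7, 84.1, 142 and 160 CPM, higher in all 3 treated libraries and found in 19, 10, 30 and 14 cells. Mt1, a metallothionein, stood at 291, 363, 737 and 527 CPM. The lowest genes of that library included Tnfrsf12a, the TWEAK receptor, at 80.3, 63.1, 20.7 and 28.9 CPM. Under the combination the highest were Shoc2, Bag3, Cdc42se2, Yeats4, Sdccag8 and Cbfa2t3, with log2 ratios from 1.09 to 1.36.

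The STING agonist library had 68 genes at least 2-fold higher and 32 lower than untreated, or 39 and 33 without the plasmacytoid-marked cells. Its highest named genes were Rexo1, Ppp1r15a, Akr1b3, Tifa, Cnp and Arhgef10l and its lowest Acot9, Stat4, Zcchc7, Man2a1, Scaf8 and Cdc27. Ppp1r15a, a stress-induced phosphatase subunit, stood at 118 CPM untreated, 247 under the STING agonist, 85.5 under the LTbR agonist and 111 under the combination. Stat4, a transducer of IL-12 and type I interferon signals, stood at 120, 42.1, 89.4 and 105 CPM, 1.32 lower under the STING agonist on the log2 scale (-1.32, -2.07 to -0.58). Of 16 immediate early genes, 2 were higher (Egr1 and Klf2) and 0 lower, against 1.23% and 0.578% of all genes, with a median of 0.46, and of 9 heat shock genes 2 were higher (Hspa1a and Hspa1b) with a median of 0.48. Egr1 stood at 207, 654, 118 and 287 CPM and Hspa1a at 34.6, 221, 58.3 and 26.7 CPM. Such genes are also induced while tissue is dissociated, and the part of dissociation in these values was not tested. Of the STING pathway and its receptors, 9 genes tested, none passed 2-fold under the STING agonist, and Tmem173, which encodes STING, stood at 118, 182, 105 and 107 CPM. The DNA sensor Cgas was lower under the LTbR agonist and the combination, at 59.1, 33.3, 23.3 and 11.1 CPM.

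Of 18 genes of the LTbR and NF-kB pathway, 1 was higher under the LTbR agonist and 0 lower, against 1.5% and 0.83% of all genes. Under the combination 1 was higher and 1 lower, against 2.98% and 3.47% of all genes. The higher gene was Ltb, lymphotoxin beta, a ligand subunit, at 6.69, 14.0, 27.2 and 53.4 CPM in 5, 1, 12 and 11 cells. The lower gene was Tnfrsf1b, a TNF receptor, at 191, 145, 135 and 80.1 CPM. The receptor Ltbr itself stood at 63.6, 64.9, 33.7 and 44.5 CPM, with intervals that held 0.

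Antigen presentation was close to even between libraries. Cd74, the invariant chain, stood at 21442, 22062, 21511 and 21334 CPM. Of all genes, 1.23% were at least 2-fold higher and 0.578% lower under the STING agonist. These shares were 1.5% and 0.83% under the LTbR agonist and 2.98% and 3.47% under the combination. Of 14 MHC class II presentation genes, of which H2-Aa and H2-Ab1 were used to choose cells, 0 passed 2-fold under the STING agonist, 1 was lower under the LTbR agonist (H2-Oa), and under the combination H2-DMb2 was higher and Lgmn, a lysosomal protease, lower. All 18 MHC class I presentation genes stayed under 2-fold with either agonist alone, and H2-Q7 was higher under the combination. Of 11 costimulators and inhibitory ligands, 1 was lower under the LTbR agonist, Tnfsf9 (4-1BB ligand), and 1 under the combination, Cd40, at 203, 216, 146 and 95.6 CPM. Cd86 stood at 894, 661, 747 and 538 CPM and Cd80 at 207, 121, 289 and 236 CPM.

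Of 12 chemokines tested, the LTbR agonist library had 3 higher (Ccl17, Ccl24 and Cxcl2) and 2 lower (Ccl4 and Cxcl9), against 1.5% and 0.83% of all genes. The combination had 1 higher (Ccl17) and 3 lower (Ccl5, Cxcl9 and Cxcl10), against 2.98% and 3.47%. Ccl4 stood at 1053, 1073, 364 and 527 CPM. Ccl5 stood at 509, 268, 326 and 129 CPM, carried by 26, 11, 10 and 2 cells.

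Cell cycle genes were higher under the combination, on few cells. Of 18 genes 6 were tested, and 5 were at least 2-fold higher under the combination, against 2.98% of all genes, with a median of 1.76. Mki67 stood at 15.6, 14.0, 23.3 and 86.7 CPM and Top2a at 7.81, 3.51, 19.4 and 60.0 CPM. Cells with both were 1, 1, 2 and 3 of the members, or 1.18% (0.0298 to 6.38), 2.22% (0.0562 to 11.8), 2.63% (0.320 to 9.18) and 7.50% (1.57 to 20.4), intervals that overlap. Hmgb2, a chromatin protein, stood at 93.7, 105, 152 and 307 CPM and was found in 50, 25, 50 and 29 cells.

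**Figure D4:**
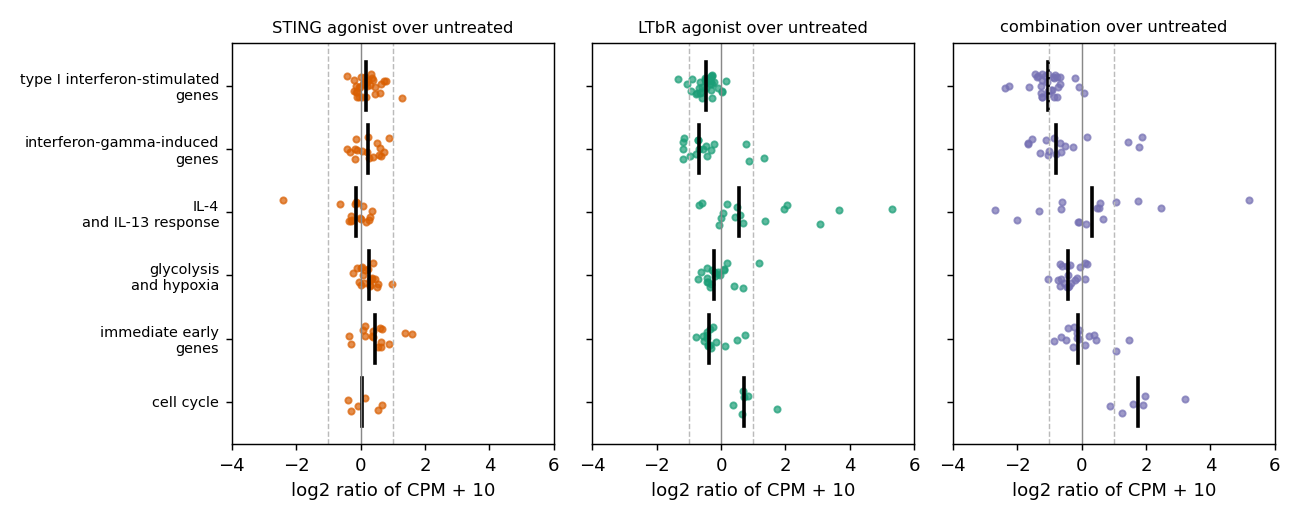
Log2 ratio to untreated of each tested gene of 6 lists in Cd209a dendritic cells, for the STING agonist, the LTbR agonist and the combination, on CPM after adding 10, with a bar at each list's median. The type I interferon-stimulated genes lay at medians of 0.16, -0.48 and -1.04 and the cell cycle genes at 0.03, 0.70 and 1.76.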

How the data were processed

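Droplet single-cell RNA-seq was made from sorted CD45+ cells of 4 groups, 1 library each. The deposited values were raw UMI counts per gene and barcode in 1 matrix of all 4 libraries. The submitters' processing notes name Cell Ranger 7.1.0 and mm10, and the number after each barcode's hyphen gave its library through the labels. Members and gene lists were chosen with earlier results of these data known.

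Cells were filtered and gated on raw UMIs as described in the report. Counts of members were summed per library, divided by the library's member total (CPM) and, with 10 CPM added, set against each other as log2 ratios over 5539 genes with a mean of at least 20 CPM. Called means a ratio of at least 2-fold. With 1 library per group no test was run. Intervals were exact (Clopper-Pearson for shares, Poisson for counts, 95%), and a floor was set at 3 UMIs per library. Other gates were cDC1 (Xcr1 or Clec9a), mature dendritic cells (Ccr7 and Fscn1), Ly6c2 monocytes, C1q macrophages and T cells. Their cells held no Cd209a UMI, or fewer than 2 in the mature gate. Plasmacytoid-marked members held at least 2 of 4 genes, a rule set after values were seen. For shares of cells with a UMI, cells were thinned to 3000 UMIs, which left out 0, 2, 0 and 1 members. Doublets were scored with Scrublet and kept.

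Named genes were, for each agonist and the combination over untreated, the 6 highest and 6 lowest ratios whose interval left out 0 and whose top 3 cells held under 30% of the UMIs, up to 4 genes per list, all marker genes, and leading genes at least 4 times every other gate in each library. Other genes named were chosen after their values were seen. Some genes that met these rules are not reported here. Promoter windows and motifs came from RefSeq (GRCm38.p6). Alternatives were another pseudocount, expression filter, scaling (TMM of edgeR 4.0.16 in R 4.3.3), gate and thinning. The other computations used Python 3.11.15, numpy 2.4.6, scipy 1.17.1 and scanpy 1.11.5, and were tested on simulated data.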

Additional observations from a re-analysis of the deposited data

Results flagged for a closer look

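Zcchc7, a zinc finger gene, lay on opposite sides in the comparisons with and without the STING agonist. The log2 ratio of the LTbR agonist over untreated was -0.79 (-1.42 to -0.16), and that of the combination over the STING agonist was 0.98 (0.06 to 1.88). The levels were 113, 40.3, 60.9 and 88.9 CPM in the untreated, STING agonist, LTbR agonist and combination libraries. With 1 library per group the difference was not tested.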

How the results depend on the processing

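Of the recomputed shares, 47 moved by less than their counting interval and 3 by more. The share ratio of the combination to untreated was 0.297 with every cell thinned to 3000 UMIs before the gate and 1.18 with gated dendritic cells as denominator, and that to the LTbR agonist was 0.339 with thinning. Counts of genes past 2-fold moved with the pseudocount, the expression filter and thinning. With 1 CPM added in place of 10, they were 146 higher and 77 lower under the STING agonist, 166 and 97 under the LTbR agonist and 306 and 310 under the combination. With 50 CPM added they were 14 and 1, 15 and 11, and 35 and 46. With a mean of at least 50 CPM they were 24 and 10, 25 and 25, and 73 and 115. With no filter the STING agonist had 123 and 73, the LTbR agonist 150 higher and the combination 363 higher. With every cell thinned they were 296 and 331, 276 and 215, and 543 and 447. A mean per cell gave 116 higher under the STING agonist, and leaving out the plasmacytoid-marked members gave 39. That alternative and the one without barcodes of 2 libraries, which moved no count by over 1.5 times, were chosen after seeing the data. Of the recomputed list medians, 83 moved little, 0 reversed and 5 moved, all for cell cycle genes under the combination (1.04 to 2.05).

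Of the recomputed ratios of named genes, 1234 moved little, 119 moved with the same sign and 11 reversed. Without plasmacytoid-marked cells Siglech went to -0.42 under the STING agonist, -0.23 under the LTbR agonist and -0.42 under the combination, Ccr9 to -0.15 and Ctsl to -0.84 under the combination. With 0 C1q UMIs required, Plet1 (-1.16) and Nos2 (-0.72) under the combination and Ccl24 (-0.18) under the LTbR agonist reversed. With at least 3 Cd209a UMIs, Ccl24 under the LTbR agonist (-0.17) and Inhba under the STING agonist (-0.59) reversed, and with thinning Nos2 under the combination (-0.23). The cause was not tested. No paired analysis was possible because each group had 1 library. The depth limits what can be seen: with 40 to 85 cells per library, single cells can carry most UMIs of a gene, and differences between libraries cannot be told apart from differences between pools of mice or runs.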

Other observations

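Glycolysis and hypoxia genes had a median log2 ratio of 0.26 under the STING agonist, -0.22 under the LTbR agonist and -0.43 under the combination. Of 20 tested, 1 was at least 2-fold higher under the LTbR agonist (Egln3, an oxygen sensor), where 1.5% of all genes were. Under the combination 1 was lower (Ddit4, an inhibitor of mTORC1, at 153, 147, 122 and 68.9 CPM), where 3.47% of all genes were. Of 20 dendritic cell transcription factors, 0 passed 2-fold under the STING agonist and 1 was lower under the LTbR agonist (Prdm1), where 0.83% of all genes were. With both agonists 1 of them was higher (Zbtb46) and 1 lower (Cebpb), against 2.98% and 3.47% of all genes. Among 5 tested enzymes of tryptophan and kynurenine metabolism, Il4i1, an amino acid oxidase, stood at 53.5, 7.01, 64.7 and 129 CPM in 11, 3, 13 and 9 cells, and Kynu, kynureninase, at 45.7, 121, 86.8 and 84.5 CPM.

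The lipid carrier Apoe stood at 132, 160, 6.47 and 64.5 CPM and was carried by 18, 9, 4 and 8 cells. The receptor Ccr7, which the rule allowed only without Fscn1, stood at 46.8, 28, 57.0 and 2.22 CPM in 7, 3, 5 and 1 cells. Of 10 cytokines tested, 1 was at least 2-fold higher (Inhba) and 0 lower under the STING agonist, against 1.23% and 0.578% of all genes. The LTbR agonist library had 1 higher (Inhba) and 1 lower (Osm), against 1.5% and 0.83%. The combination had 0 higher and 2 lower (Osm and Areg), against 2.98% and 3.47%, with a median of -0.61. Inhba stood at 23.4, 78.9, 68.6 and 20 CPM in 5, 3, 5 and 1 cells, and Areg at 26.8, 28, 29.8 and 4.45 CPM. Of 8 Toll-like receptors and sensors, none passed 2-fold in these comparisons.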
